A study of Mus musculus with 28 samples.

Results

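The apolipoproteins and the machinery that loads lipid onto them were followed here through 10 liver transcripts, *Apoa1*, *Apoa2*, *Apoa4*, *Apoa5*, *Apob*, *Apoc1*, *Apoc2*, *Apoc3*, *Apoe* and *Mttp*. They were taken as the rows of the deposited count table whose Ensembl identifiers carry these symbols, 10 of 49585 features, and each had a count in all 28 libraries. Livers came from 28 C57BL/6JOlaHsd mice of 5 to 7 months of age, kept on standard chow and fasted for some hours before they were killed. The 4 groups held 7 mice each, WT and SIRT6-tg mice of either sex. WT mice carried no transgene, and SIRT6-tg mice carried a transgene for SIRT6, a deacylase that uses NAD+. All transgenic mice descended from a single transgenic line that had been backcrossed to this strain, so line and transgene cannot be told apart, and for these animals the promoter of the transgene is not given in the sources used here.

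Apolipoproteins are the protein part of lipoproteins, the particles that carry triglyceride and cholesterol through blood. In hepatocytes the microsomal triglyceride transfer protein, encoded by *Mttp*, adds lipid to apolipoprotein B while it enters the endoplasmic reticulum, and the loaded particle leaves the cell as very low density lipoprotein (VLDL). Smaller apolipoproteins then join the particle, form high density lipoprotein (HDL), or control the lipases and receptors that remove lipid from the circulation.

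Total counts per library ran from 18758863 to 35393069, and the 10 genes together took 3.71% to 6.92% of them. The liver label was checked with *Alb* and *Ttr*, which were abundant in every library: *Alb*, which encodes serum albumin, had at least 1748936 counts and *Ttr*, which encodes transthyretin, at least 123693. *Sirt6* was at 1.69 to 3.24 CPM (counts scaled to a common library total) in male WT and 198 to 358 CPM in male SIRT6-tg mice, against 1.80 to 6.22 CPM in female WT and 16.4 to 50.2 CPM in female SIRT6-tg mice, transgene and endogenous reads together. The transgenic increase was therefore 102-fold in males and 10.5-fold in females, and sex and transgene level cannot be told apart in any comparison of the sexes below. Levels in the text are CPM after TMM scaling, and differences are log2 fold changes from 1 edgeR fit of all 28 libraries, called at an adjusted p-value under 0.05 over the 21583 genes tested. Each library is taken as 1 mouse, as numbered in the labels. Bulk RNA cannot tell a smaller number of cells of a type from less RNA per cell.

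Of the 10 genes, 7 lie in a pair of clusters. On chromosome 9 of GRCm38, *Apoa1*, *Apoc3*, *Apoa4* and *Apoa5* sit within 43.3 kb (46228580 to 46271919), and on chromosome 7, *Apoc2*, *Apoc1* and *Apoe* sit within 27.6 kb (19671579 to 19699188). *Apoa2* is on chromosome 1 (171225054 to 171226379), *Apob* on chromosome 12 (7977648 to 8016835) and *Mttp* on chromosome 3 (138089854 to 138144968). The deposited counts came from reads assigned to a single gene, with no strand setting stated, so genes that overlap others are uncertain. This mattered most for *Apoc2*, which shares 79.5% of its exon bases with *Gm44805*, a gene on the same strand that starts within the *Apoc4* locus. *Gm44805* was at 0 in all libraries and *Apoc2* itself had 784 counts over all 28, while *Apoc4*, which lies between *Apoc2* and *Apoc1*, had 350881. *Apoa4* shares 69.8% of its exon bases with genes on the opposite strand, *Apoa5* 20.8% and *Mttp* 9.49%, and the other 6 genes share none.

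Promoters are shown for genes that were higher in male SIRT6-tg than in male WT mice. RefSeq gave a promoter entry for 8 of the 10 genes. *Apoc1* and *Apoc3* are the other two. The 250 bases before the transcription start were searched on both strands for a TATA box (TATAAA), a nuclear receptor half-site (AGGTCA), an HNF4-type core (AAAGTCC), a CRE half-site (TGACG), a C/EBP-type core (TTGCNNAA) and an E-box (CACGTG). Capitals mark matches, and each sequence is from RefSeq on GRCm38.p6, 5′ to 3′ on the strand of the gene. For *Mttp* only the 30 bases next to the start are given, because the window beyond them overlaps *Trmt10a* on the opposite strand. The RefSeq start of *Mttp* lies inside the span that Gencode gives the gene.
Apoa5, chr9:46268383-46268632, plus strand: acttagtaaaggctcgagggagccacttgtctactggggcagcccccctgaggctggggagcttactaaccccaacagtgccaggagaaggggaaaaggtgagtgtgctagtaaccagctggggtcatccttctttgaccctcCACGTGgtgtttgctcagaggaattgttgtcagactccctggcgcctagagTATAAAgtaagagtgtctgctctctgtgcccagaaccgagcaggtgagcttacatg
Apoa2, chr1:171224804-171225053, plus strand: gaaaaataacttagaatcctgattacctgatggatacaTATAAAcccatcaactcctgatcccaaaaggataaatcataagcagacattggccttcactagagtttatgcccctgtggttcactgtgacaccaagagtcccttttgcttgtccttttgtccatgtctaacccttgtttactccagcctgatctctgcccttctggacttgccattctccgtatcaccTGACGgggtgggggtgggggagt
Mttp, chr3:138143419-138143448, minus strand: taCGTCAtcggactgcgctaactccaaacc
*Apoa5* held a TATA box 56 to 51 bases and an E-box 107 to 102 bases before the start. *Apoa2* held a TATA box 212 to 207 bases and a CRE half-site 23 to 19 bases before it, and *Mttp* a CRE half-site 28 to 24 bases before it. Of the other 5 windows, *Apob* held a TATA box and a C/EBP-type core, *Apoc2* a nuclear receptor half-site and a CRE half-site, and *Apoa1*, *Apoa4* and *Apoe* none of these letters. Over 32851 RefSeq promoter windows of this length, 12.4% held the TATA box, 14.02% the nuclear receptor half-site, 3.58% the HNF4-type core, 17.8% the CRE half-site, 9.56% the C/EBP-type core and 6.02% the E-box. No match overlapped another in the windows of the 10 genes, and a match is a description of these letters only.

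Levels were compared between genes only per kilobase of exon that no other gene shares, as CPM per kb. In all 4 groups the order of the means was *Apoa2*, *Apoe*, *Apoa1*, *Apoc1*, *Apoc3*, *Apoa5*, *Apob*, *Apoa4*, *Mttp* and *Apoc2*. In male WT mice *Apoa2*, a structural protein of HDL, stood at 11912 ± 3034 CPM per kb (SD, n = 7), and *Apoe*, a ligand of lipoprotein receptors, at 9183 ± 1295 CPM per kb (SD, n = 7). *Apob* stood at 330.2 ± 113.9 CPM per kb (SD, n = 7), and *Mttp* at 50.1 ± 6.91 CPM per kb (SD, n = 7). Neighbours in the order overlapped in range over the mice of that group except *Apoc3* above *Apoa5*, and *Mttp* above *Apoc2*. In females *Apoa2* also lay above the range of *Apoe*, and *Apoc1* above that of *Apoc3*. *Apob* lay above the range of *Apoa4* in every group except male WT. *Apoc2* was at 4.98 to 7.69 CPM per kb in the group means, a level that the overlap with *Gm44805* makes uncertain. *Apoa4* was divided by 549 of its 1815 exon bases, since genes on the opposite strand share the rest. Its place above *Mttp* therefore depends on the strand setting, which is not known.

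**Figure D1:**
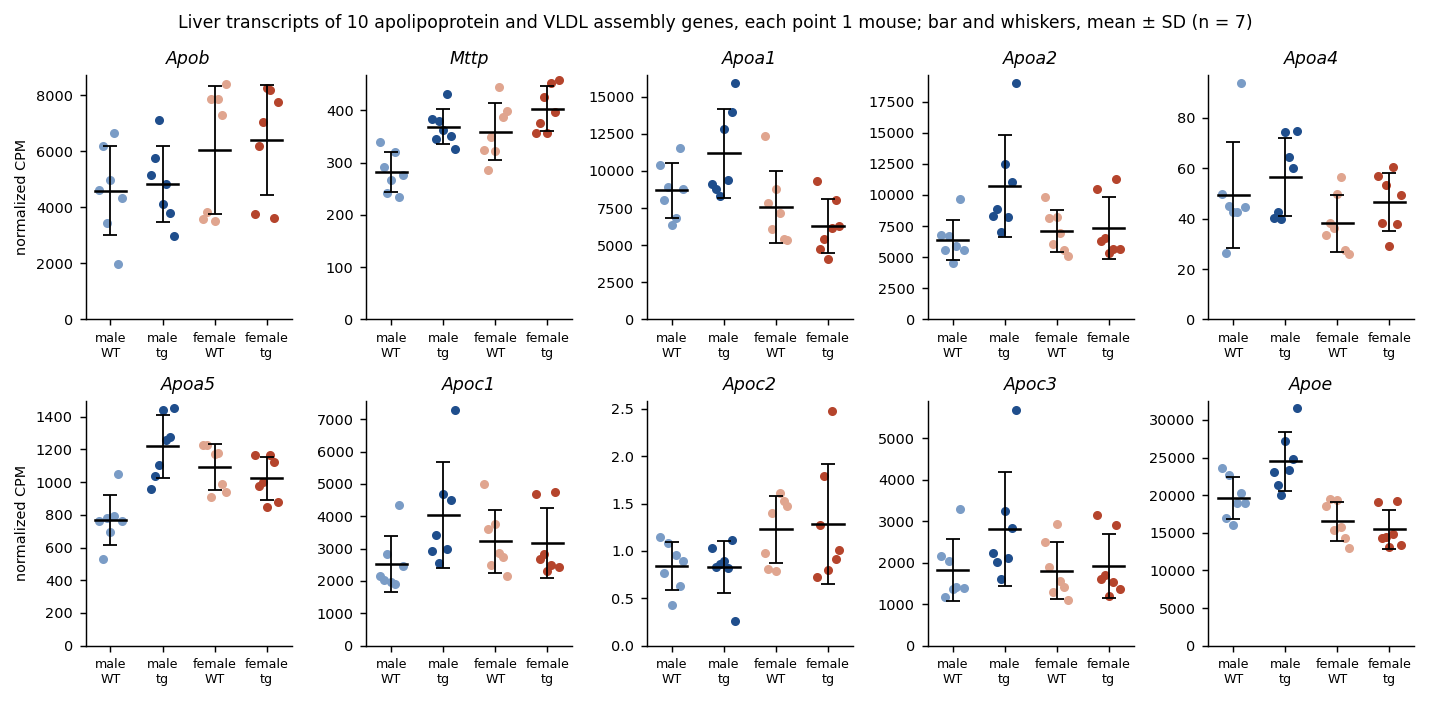
Normalized CPM (y axis, from 0, a different scale in each panel) of the 10 genes in each of the 28 mice, by group (x axis), with the mean as a bar and 1 SD as whiskers. *Apoa5* and *Mttp* were higher in male SIRT6-tg than in male WT mice with little overlap, and 1 male SIRT6-tg mouse stood far above the others for *Apoa2*, *Apoc1* and *Apoc3*.

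Male SIRT6-tg mice were compared with male WT mice to ask whether liver transcripts of lipoprotein assembly differ with SIRT6 overexpression. *Apoa5*, *Apoa2*, *Apoc1* and *Mttp* were higher in male SIRT6-tg livers, by 1.31-fold to 1.67-fold, and none of the 10 genes was lower. These 4 of 10 stand beside 20.7% of all genes tested that passed the same threshold, 2090 higher and 2377 lower. The median log2 fold change of the 10 genes was 0.38, and that of all genes tested 0.06. Among 10 secreted hepatocyte proteins, used below as a reference, the median was 0.34, with 6 called higher and 0 lower. The size of these differences depended on how libraries were scaled, and only the call of *Apoa5* held under every scaling tried, as described below.

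The core of the VLDL particle is *Apob*, whose protein stays with the particle from assembly to uptake, and *Mttp*, whose protein loads it. Across male WT mice *Apob* ran from 1985 CPM through a median of 4611 to 6664 CPM, and across male SIRT6-tg mice from 2996 through 4827 to 7126 CPM. The ranges overlapped almost entirely, and the log2 difference was 0.07 (standard error 0.26, 95% interval −0.46 to 0.59, edgeR adjusted p = 0.893). *Mttp* ran from 235 CPM through 277 to 339.9 CPM in male WT and from 326 through 363 to 432 CPM in male SIRT6-tg mice. All but 1 of the male SIRT6-tg mice lay above every male WT mouse, and the log2 difference was 0.39 (standard error 0.10, edgeR adjusted p = 0.00526). In females the same ranges were 286 through 350.0 to 444 CPM in WT and 356 through 396 to 457 CPM in SIRT6-tg mice for *Mttp*. All 7 female SIRT6-tg mice lay above the WT median of *Mttp*, yet the log2 difference of 0.17 did not pass (95% interval −0.04 to 0.37, edgeR adjusted p = 1). *Apob* in females ran from 3498 through 7302 to 8427 CPM in WT and from 3619 through 7067 to 8255 CPM in SIRT6-tg mice, with a log2 difference of 0.08 (95% interval −0.44 to 0.61). Within each female genotype *Apob* fell into a low and a high set. In WT 3 mice lay between 3498 and 3843 CPM and the others at 7302 CPM or above, and in SIRT6-tg 2 mice lay at 3619 and 3782 CPM and the others at 6185 CPM or above. Together these low mice were the 5 females whose libraries stood apart in the trend over transcript length described below. Whether that trend sets the split was not tested.

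Among the apolipoproteins of HDL, *Apoa2* rose in male SIRT6-tg mice. It ran from 4564 CPM through 5908 to 9673 CPM in male WT and from 7029.6 through 8906 to 18962 CPM in male SIRT6-tg mice. All 7 transgenic mice lay above the WT median and 3 above every WT mouse, and the log2 difference was 0.74 (standard error 0.21, edgeR adjusted p = 0.0113). Without the highest of these mice, male SIRT6-tg replicate 7, the log2 difference fell to 0.53 and no longer passed (edgeR adjusted p = 0.051). *Apoa1*, which encodes the main protein of HDL and activates cholesterol esterification, ran from 6388 through 8795 to 11567 CPM in male WT and from 8315 through 9397 to 15908 CPM in male SIRT6-tg mice. Here 3 transgenic mice exceeded every WT mouse, and the log2 difference of 0.36 did not pass (95% interval −0.04 to 0.76, edgeR adjusted p = 0.2). *Apoa4*, whose protein is secreted mainly by intestine and in the mouse also by liver, ran from 26.2 through 44.5 to 93.9 CPM and from 39.9 through 60.0 to 74.7 CPM. Its highest male mouse was a WT mouse, and the log2 difference was 0.20 (95% interval −0.25 to 0.66, edgeR adjusted p = 0.583).

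None of these 3 genes passed in females. *Apoa1* ran from 5361 through 7187 to 12336 CPM in WT and from 4074 through 6161 to 9299.8 CPM in SIRT6-tg mice, a log2 difference of −0.27 (95% interval −0.66 to 0.13). *Apoa2* ran from 5130.4 through 6977 to 9834 CPM and from 5336 through 6293 to 11324 CPM, a log2 difference of 0.04 (95% interval −0.39 to 0.47). *Apoa4* ran from 25.9 through 36.1 to 56.5 CPM and from 29.1 through 49.6 to 60.6 CPM, a log2 difference of 0.28 (95% interval −0.17 to 0.74). For all 3 genes the female groups overlapped widely. The intervals of *Apoa2* and *Apoa4* include a rise of 0.39, the size called in males for *Mttp*, and that of *Apoa1* does not. The male difference of the same gene lies within the female interval for *Apoa4* (0.20), but not for *Apoa2* (0.74) or *Apoa1* (0.36). For none of these genes was a difference between the sexes called.

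*Apoa5* and the *Apoc* genes encode proteins that set how fast lipoprotein lipase clears triglyceride. Apolipoprotein A5 and C2 favour the lipase, and C3 and C1 oppose it. *Apoa5* ran from 532 CPM through 763 to 1050.5 CPM in male WT and from 956 through 1259 to 1451 CPM in male SIRT6-tg mice. Of the transgenic males 5 lay above every WT male, and the log2 difference was 0.67 (standard error 0.12, edgeR adjusted p = 0.000155), the lowest adjusted p among the 10 genes. In females *Apoa5* ran from 907 through 1169 to 1229 CPM in WT and from 848 through 1000.1 to 1169 CPM in SIRT6-tg mice. None of the female SIRT6-tg mice lay above the WT median, and the log2 difference was −0.09 (95% interval −0.34 to 0.15, edgeR adjusted p = 1).

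*Apoc1* ran from 1903 CPM through 2158 to 4356 CPM in male WT and from 2556 through 3407 to 7289 CPM in male SIRT6-tg mice. All 7 transgenic males lay above the WT median and 3 above every WT male, with a log2 difference of 0.68 (standard error 0.24, edgeR adjusted p = 0.0381). This call was the least stable of the 4, since 12 of 28 fits that left out 1 library lost it, with adjusted p-values of up to 0.154. *Apoc3* ran from 1168 through 1417 to 3294 CPM in male WT and from 1612 through 2235 to 5671 CPM in male SIRT6-tg mice. All 7 transgenic males lay above the WT median, yet the log2 difference of 0.62 did not pass (95% interval 0.04 to 1.20, edgeR adjusted p = 0.124). *Apoc2* ran from 0.434 through 0.892 to 1.15 CPM and from 0.265 through 0.864 to 1.11 CPM in males, with 5 to 39 counts per library. Its log2 difference was −0.01 (95% interval −0.59 to 0.56).

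In females no *Apoc* gene passed. *Apoc1* ran from 2166 through 2850.3 to 5008 CPM in WT and from 2312 through 2671 to 4767 CPM in SIRT6-tg mice, a log2 difference of −0.03 (95% interval −0.50 to 0.45). *Apoc3* ran from 1099 through 1562 to 2936 CPM and from 1207 through 1604 to 3142 CPM, a log2 difference of 0.09 (95% interval −0.49 to 0.67). *Apoc2* ran from 0.793 through 1.41 to 1.61 CPM and from 0.724 through 1.01 to 2.48 CPM, a log2 difference of 0.07 (95% interval −0.48 to 0.61). The female groups overlapped for each of these genes.

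*Apoe* encodes the ligand through which the LDL receptor and related receptors take up remnant particles, and it was the most abundant of the 10 by counts. It ran from 16065 CPM through 18961 to 23607 CPM in male WT and from 20014 through 23361 to 31600.2 CPM in male SIRT6-tg mice. Of the transgenic males 3 lay above every WT male and all 7 above the WT median, but the log2 difference of 0.32 did not pass (95% interval 0.07 to 0.57, edgeR adjusted p = 0.0598). In females it ran from 12932 through 15784 to 19442 CPM and from 13088 through 14389.7 to 19233 CPM, with a log2 difference of −0.09 (95% interval −0.34 to 0.15). Macrophages also express *Apoe*, *Apoc1* and *Apoc2*, and the 12 macrophage markers were all lower in male SIRT6-tg mice. *Itgax*, an integrin subunit, fell by 3.09 and *Gpnmb*, a glycoprotein of lipid-laden macrophages, by 5.42 on the log2 scale. The summed list was 508 to 1624 CPM in male WT and 418 to 709 CPM in male SIRT6-tg mice, and 568 to 1170 CPM and 448 to 1094 CPM in the same female groups. The part of macrophages in the levels of these 3 genes was not tested.

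**Figure D2:**
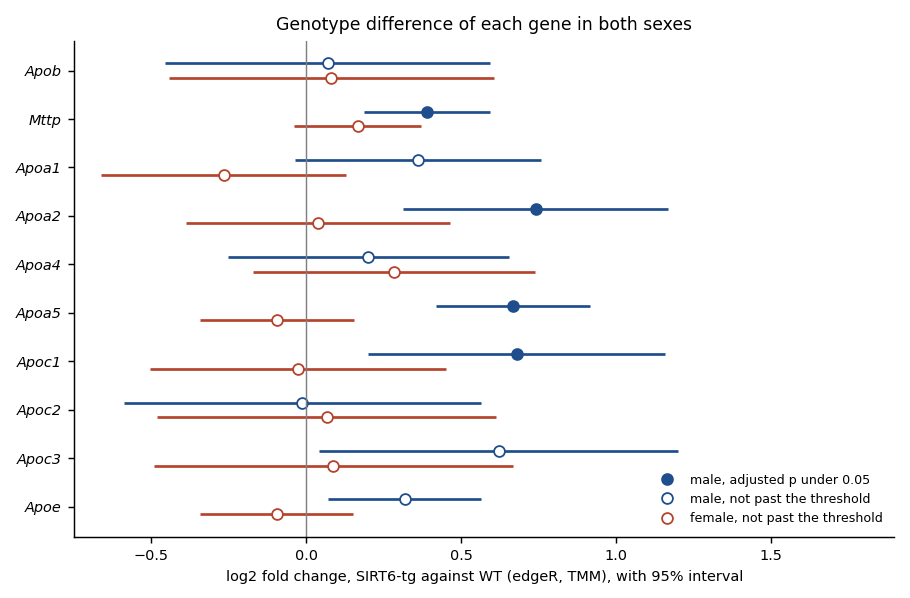
Log2 fold change of SIRT6-tg against WT mice (x axis) of each of the 10 genes (y axis) in males and females, with its 95% interval. Filled points passed an adjusted p of 0.05: *Mttp*, *Apoa2*, *Apoa5* and *Apoc1* in males lie between 0.39 and 0.74, and no female point passed.

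In female SIRT6-tg against female WT mice, 0 of the 10 genes passed with edgeR and 0 with DESeq2, and at an unadjusted p under 0.05 the count was also 0. Over all genes tested, 0.0278% passed, and 1212 genes had an unadjusted p under 0.05. The 10 log2 differences lay between −0.27 for *Apoa1* and 0.28 for *Apoa4*, with a median of 0.05. Complete separation of the 7 and 7 mice occurred for none of the 10 genes in either sex, beside 6.98% of all genes tested in males and 0.0834% in females.

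The difference between the male and the female genotype effect was tested directly. It passed for *Apoa5* alone, whose effect was larger in males by 0.76 on the log2 scale (standard error 0.17, edgeR adjusted p = 0.00728), 1 of 10 beside 5.05% of all genes. For *Apoa2*, *Apoc1*, *Apoa1* and *Apoe* the male effect was numerically larger, by 0.70 (95% interval 0.10 to 1.31), 0.71 (95% interval 0.03 to 1.38), 0.63 (95% interval 0.07 to 1.19) and 0.41 (95% interval 0.06 to 0.76). These 4 had unadjusted p-values under 0.05 and edgeR adjusted p-values of 0.174 to 0.245, so a different effect in the sexes was not called. *Mttp*, which passed in males, differed from its female effect by 0.22 (95% interval −0.07 to 0.51, edgeR adjusted p = 0.417).

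Male WT mice were compared with female WT mice to place these values against sex. *Apoa5* was lower in male WT livers by 0.51 on the log2 scale (standard error 0.12, edgeR adjusted p = 0.00481), with 6 of 7 males below every female. *Mttp* was lower by 0.35 (standard error 0.10, edgeR adjusted p = 0.0184), with 4 of 7 males below every female. These were 2 of 10, beside 12.4% of all genes tested, and the ranges of 7 and 7 were apart for none of the 10 beside 2.96% of all genes. Without male WT replicate 3 or any of female WT replicates 5, 6 and 7 the count fell to 1, because *Mttp* no longer passed (edgeR adjusted p up to 0.0789). This comparison shares the male WT mice with the male genotype comparison, and the values stand side by side: the median of *Apoa5* was 763 CPM in male WT, 1259 CPM in male SIRT6-tg and 1169 CPM in female WT mice, and that of *Mttp* was 277, 363 and 350.0 CPM.

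Differences in male mice depended on the scaling of the libraries. TMM factors of male WT libraries were 1.06 to 1.17, those of male SIRT6-tg libraries 0.821 to 0.993, and those of all female libraries 0.906 to 1.06. Scaling by library size alone gave all genes tested a median log2 difference of −0.22 in males, and scaling by 10 secreted hepatocyte proteins −0.28, against 0.06 under TMM. Under these scalings *Apoa5* stayed higher in male SIRT6-tg mice, by 0.37 (edgeR adjusted p = 0.0127) and 0.32 (edgeR adjusted p = 0.0201). *Apoa2*, *Apoc1* and *Mttp* kept their direction but did not pass under either. *Apob* and *Apoa4* changed sign under both, and *Apoa1* and *Apoe* under the second. The count in males was thus 1 of 10 under either of these scalings, beside 19.9% and 19.2% of all genes, and only 4.89% and 3.26% of the genes called were then higher in SIRT6-tg mice, against 46.8% under TMM, 35.7% under RLE and 26.2% under upper-quartile scaling. The difference between the sexes for *Apoa5* was 0.46 under library size alone (edgeR adjusted p = 0.0618) and 0.36 under the hepatocyte scaling (edgeR adjusted p = 0.114), and neither passed. Under RLE and upper-quartile scaling *Apoa2* still passed in males (edgeR adjusted p = 0.0209 and 0.0352). *Mttp* passed there too (edgeR adjusted p = 0.0111 and 0.0209), and *Apoc1* did not (edgeR adjusted p = 0.0644 and 0.0995).

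The comparison of WT males with WT females moved as well. Its median over all genes went from −0.00326 under TMM to 0.19 under library size alone and 0.26 under the hepatocyte scaling. *Mttp* was then not called under either, and *Apoa5* stayed lower in males but passed only under library size. *Apoe* was called higher in male WT mice under both, by 0.44 (edgeR adjusted p = 0.00181) and 0.53 (edgeR adjusted p = 1.43e-05), and *Apoa1* and *Apoa4* only under the hepatocyte scaling, by 0.51 and 0.62. The hepatocyte proteins used for this scaling themselves differed between the WT sexes. Under TMM 4 of the 10 were lower in male WT mice and 0 higher, with a median log2 difference of −0.21.

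**Figure D3:**
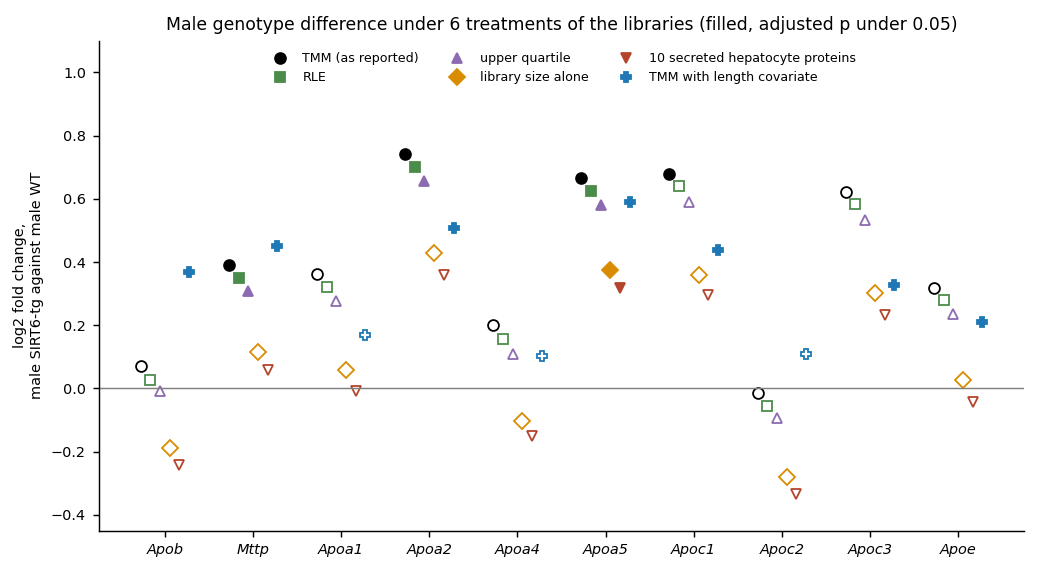
Male log2 fold change of SIRT6-tg against WT mice (y axis) for each of the 10 genes (x axis) under 4 library scalings besides TMM and with the length trend of each library as a covariate, filled where the adjusted p was under 0.05. *Apoa5* is filled in every case, while *Apob* runs from −0.24 to 0.37.

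Within a library, each gene was also set against the mean log2 CPM of those 10 secreted hepatocyte proteins, among them *Alb*, *Ttr* and *F2*, which encodes prothrombin. That reference was itself higher in male SIRT6-tg mice, with 6 of 10 genes called higher and a median log2 difference of 0.34 under TMM, and 0 of 10 and 0.05 under library size alone. Relative to it, the male difference of *Apoa5* was 0.33 (two-sided exact permutation p = 0.00699, adjusted to 0.14 over 20 tests) and that of *Apoa2* 0.35 (exact p = 0.0315, adjusted to 0.315). None of the 20 tests passed after adjustment, and the smallest p that 7 against 7 allow is 0.000583. For *Apoe* and *Apoa1* the male difference of SIRT6-tg from WT mice, relative to the reference, was −0.03 and −0.0027.

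The other genes of the pathway were taken from lists chosen with earlier results of these data known, and their counts in males stand beside 20.7% of all genes called, 2090 higher and 2377 lower. Most of the increases did not pass under library size alone or under the hepatocyte scaling. The counts under these are given with each list, an alternative added after seeing the data. The lists were also fitted under RLE and upper-quartile scaling, whose counts are not given here. For the lists, the other scalings are library size alone and the hepatocyte scaling. Of 14 genes that assemble and export VLDL, 6 were higher in male SIRT6-tg mice and none lower under TMM, but 1 was higher and 1 lower under either other scaling. The median log2 difference was 0.31 under TMM, near the 0.34 of the hepatocyte proteins, and 0.03 and −0.03 under the others. *Smlr1*, which encodes a protein needed for VLDL secretion, was higher by 1.27 (edgeR adjusted p = 6.67e-05) and stayed so under library size (0.96) and the hepatocyte scaling (0.88). *Cideb*, which encodes a protein that helps lipidate VLDL, was higher by 0.36 (edgeR adjusted p = 0.000957) under TMM and did not pass under the others (0.08 and 0.02). *P4hb*, which encodes the protein disulfide isomerase that forms the small subunit of the *Mttp* complex, rose by 0.31 in males (edgeR adjusted p = 0.00761), where its effect exceeded the female one by 0.50 (edgeR adjusted p = 0.0101). *Surf4*, a cargo receptor for secretory proteins, did not pass in males but differed between the sexes by 0.34 (edgeR adjusted p = 0.0404). Neither gene passed in either comparison under the other scalings, where the male difference of *P4hb* was 0.03 and −0.04 and the difference between the sexes of *Surf4* 0.05 and −0.04.

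Among 19 genes that supply lipid to the particle, 9 were higher and 1 lower in male SIRT6-tg mice under TMM, 3 and 2 under library size, and 2 and 1 under the hepatocyte scaling. The median log2 difference was 0.31, 0.04 and −0.03. *Agpat2*, an acyltransferase of glycerolipid synthesis, rose by 0.69 (edgeR adjusted p = 4.78e-05) and *Fabp1*, the liver fatty acid binding protein, by 0.82 (edgeR adjusted p = 6.83e-05). *Fabp1* also passed under both other scalings, with 0.52 and 0.46, and *Agpat2* under library size but not under the hepatocyte scaling (edgeR adjusted p = 0.0642). *Soat1* fell by 1.30 (edgeR adjusted p = 1.34e-06) and stood at −1.58 and −1.64 under the others, where it also passed. It encodes the cholesterol acyltransferase of macrophages and many other cells, and its effect differed between the sexes by −1.02 (edgeR adjusted p = 0.00851). *Aadac*, which encodes a lipid esterase of the endoplasmic reticulum, had an effect larger in males by 0.48 (edgeR adjusted p = 0.0244) under TMM, which did not pass under the others (0.18 and 0.08).

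Of 13 lipases and remodelling genes, 6 were higher and 2 lower in male SIRT6-tg mice under TMM, 2 and 2 under library size, and 1 and 2 under the hepatocyte scaling. *Lipc*, hepatic lipase, rose by 0.55 (edgeR adjusted p = 3.14e-05), and did not pass under the hepatocyte scaling (0.19, edgeR adjusted p = 0.261). *Lpl*, lipoprotein lipase itself, fell by 1.34 (edgeR adjusted p = 0.000345) and *Abcg1*, a cholesterol exporter of macrophages and other cells, by 1.08 (edgeR adjusted p = 5.46e-06), and both passed in the same direction under the other scalings. The effect of *Abcg1* differed between the sexes by −0.93 (edgeR adjusted p = 0.00957).

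Of 13 receptors and their modifiers, none was higher and 3 were lower in male SIRT6-tg mice under TMM, 5 under library size and 4 under the hepatocyte scaling. *Apobr*, a receptor of macrophages for apolipoprotein B particles, fell by 1.05 (edgeR adjusted p = 0.000526), with a difference between the sexes of −1.04 (edgeR adjusted p = 0.0383), and *Mylip*, a ligase that marks the LDL receptor for degradation, fell by 0.44 (edgeR adjusted p = 0.0256). Of 4 genes of *Apob* mRNA editing, *Apobec1*, the catalytic deaminase, fell by 0.67 (edgeR adjusted p = 0.000925), and was also called lower under both other scalings. The counts do not show editing itself. Of 7 other apolipoprotein genes, *Apoh* alone passed and rose by 0.51 (edgeR adjusted p = 0.0256) under TMM, and did not pass under library size (0.21) or the hepatocyte scaling (0.14). *Apoc4*, between *Apoc2* and *Apoc1*, ran from 290 to 822 CPM in male WT and from 348 to 1286 CPM in male SIRT6-tg mice.

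Among 20 transcriptional regulators of these genes, 6 were higher in male SIRT6-tg mice and none lower under TMM, but none was higher and 1 lower under either other scaling. The median log2 difference was 0.27, −0.02 and −0.09. *Cebpa*, a factor of hepatocyte identity, rose by 0.47 (edgeR adjusted p = 0.000134), and its effect exceeded the female one by 0.47 (edgeR adjusted p = 0.018). *Srebf1*, which encodes the factor of lipogenic genes SREBP1, rose by 0.66 (edgeR adjusted p = 0.00227). Under the other scalings neither passed in males, with 0.19 and 0.13 for *Cebpa* and 0.38 and 0.32 for *Srebf1*. In females no gene of any of these lists passed with edgeR, and at an unadjusted p under 0.05 there were 4 of 14 assembly genes, 3 of 19 lipid supply genes, 1 of 13 lipases and remodelling genes and none of the receptors, editing genes, other apolipoproteins and regulators.

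Markers of other cells were read beside these results. All 6 T cell markers and all 6 stellate cell markers were lower in male SIRT6-tg mice under each scaling. The T cell list summed to 11.8 to 32.9 CPM in male WT and 3.70 to 6.31 CPM in male SIRT6-tg mice, and the stellate list to 294 to 535 CPM and 227 to 326 CPM, with *Cd3e*, part of the T cell receptor complex, at 1.05 to 4.07 CPM in male WT and 0.349 to 0.712 CPM in male SIRT6-tg mice. The defining macrophage marker *Adgre1* was at 19.4 to 73.8 CPM and 12.2 to 26.6 CPM in the same groups. Enterocytes express *Apoa1*, *Apoa4*, *Apob*, *Apoc2*, *Apoc3* and *Mttp*. Of 9 enterocyte markers *Cdx1* and *Alpi* had no count in any library and *Sis* at most 2. *Fabp2*, the intestinal fatty acid binding protein, was the 1 marker that passed, and rose by 0.69 (edgeR adjusted p = 0.00252), from 33.7 to 57.3 CPM in male WT to 54.3 to 102.9 CPM in male SIRT6-tg mice. It did not pass under library size (0.39) or the hepatocyte scaling (0.32). The other markers tested did not pass, with −1.23 for *Lct*, −0.34 for *Slc5a1* and 0.09 for *Vil1*, and the median of the 4 was −0.13. The sum of the list was thus almost all *Fabp2*. The summed enterocyte list was 35.3 to 58.5 CPM in male WT and 54.95 to 103.8 CPM in male SIRT6-tg mice, and 26.4 to 56.4 CPM and 42.2 to 66.6 CPM in the same female groups. Its part in the levels of the genes enterocytes express was not tested.

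Between mice of the same group most of the 10 genes varied together. The share of correlated pairs among other genes was not computed, so the counts are not read as particular to these 10. With group means removed, 37 of 45 pairs of genes were correlated over the 28 mice (Pearson's r, 100000 permutations of mice within groups, Benjamini-Hochberg adjusted over the 45 pairs), 24 positively and 13 negatively, and 33 by Spearman's rho. *Apoa2* and *Apoc1* were the closest pair, with r = 0.96 (rho = 0.90, permutation p = 1e-05 for each, the smallest these permutations can give, adjusted p = 3.21e-05 and 4.09e-05). Without the 2 mice farthest from the median of *Apoa2*, r was 0.95. *Apob* ran against most of the others, with r = −0.92 for *Apoc1* (rho = −0.84, permutation p = 1e-05 for each, adjusted p = 3.21e-05 and 4.09e-05, r without 2 mice −0.89). *Apob* and *Mttp* rose and fell together, with r = 0.67 (rho = 0.61, permutation p = 0.00043 and 0.00232, adjusted p = 0.000841 and 0.00418, r without 2 mice 0.66). The neighbours *Apoa4* and *Apoa5* had r = 0.81 (rho = 0.73, permutation p = 2e-05 and 1e-04, adjusted p = 6e-05 and 0.000225, r without 2 mice 0.71).

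**Figure D4:**
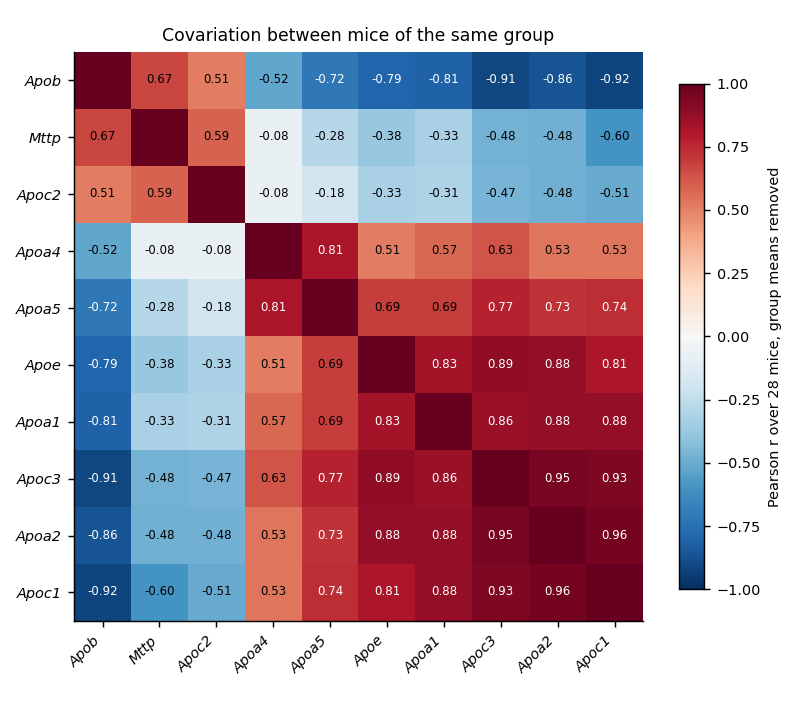
Pearson's r between the log2 CPM of each pair of the 10 genes (both axes) over 28 mice after removal of the group means, from −1 (blue) to 1 (red). Over all mice *Apob*, *Mttp* and *Apoc2* form 1 block and the other 7 genes another, with r as low as −0.92 between *Apob* and *Apoc1*. Some signs differed within sets of mice split by the length trend described below. The r of *Apoc2* with *Apob* was −0.35 among the 7 mice of low trend and −0.11 among the other 21. With *Mttp* it was 0.11 and 0.37. The r of *Mttp* with *Apob* was 0.06 and 0.42. With none of the 7 genes of the second block was the r of *Mttp* negative in both sets. The split narrows the range of the trend in each set, so it cannot decide whether the blocks hold.

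The levels of these genes also went with a trend over transcript length. Pairs were not correlated with that trend removed, so its share in the covariation was not tested. In each library the log2 CPM of 10756 protein-coding genes other than these 10, relative to their mean over all libraries, was regressed on log2 exon length, and the slope is called the length trend. It ran from −0.26 to 0.10 log2 units per doubling of length in male WT, from −0.30 to 0.07 in male SIRT6-tg, from −0.15 to 0.22 in female WT and from −0.17 to 0.22 in female SIRT6-tg mice. The lowest male libraries were male WT replicate 6 and male SIRT6-tg replicate 7, the latter being the mouse that stood above the others for *Apoa2*, *Apoc1* and *Apoc3*.

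*Apob*, with 13934 exon bases, rose with the length trend (r = 0.97, rho = 0.94, permutation p = 1e-05 for each, the smallest possible, adjusted p = 1.67e-05 and 2e-05 over 10 genes, r without 2 mice 0.97). *Apoc1*, with 744 exon bases, fell with it (r = −0.95, rho = −0.89, permutation p = 1e-05 for each, adjusted p = 1.67e-05 and 2e-05, r without 2 mice −0.94). *Apoa5*, with 2522 exon bases, was related less closely (r = −0.71, rho = −0.69, permutation p = 8e-05 and 0.00019, adjusted p = 0.000114 and 0.000271, r without 2 mice −0.64), and *Mttp*, with 6206, in the direction of *Apob* (r = 0.63, rho = 0.52, permutation p = 0.0009 and 0.00781, adjusted p = 0.00113 and 0.00868, r without 2 mice 0.56). *Apoc2*, with 813 exon bases, did not go the way of the other short genes (r = 0.54, rho = 0.37, permutation p = 0.00602 and 0.069, adjusted p = 0.00612 and 0.069, r without 2 mice 0.48). In 7 mice, 5 of them female, the trend lay more than 0.1 below the group mean and apart from the others, which began at −0.08. The 5 females were WT replicates 1, 2 and 4 and SIRT6-tg replicates 1 and 6, the mice of the low *Apob* sets. Among the other 21 mice r was 0.92 for *Apob*, −0.89 for *Apoc1*, −0.46 for *Apoa5* and 0.33 for *Mttp*, and 26 of the 45 pairs of genes kept their sign in both sets. Among the 7 it was 0.56, −0.81, −0.61 and −0.17, and the sign for *Mttp* was not the same in both sets. The sets were split on the trend itself, which narrows its range within each. Values and signs within them therefore cannot show whether a relation holds.

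**Figure D5:**
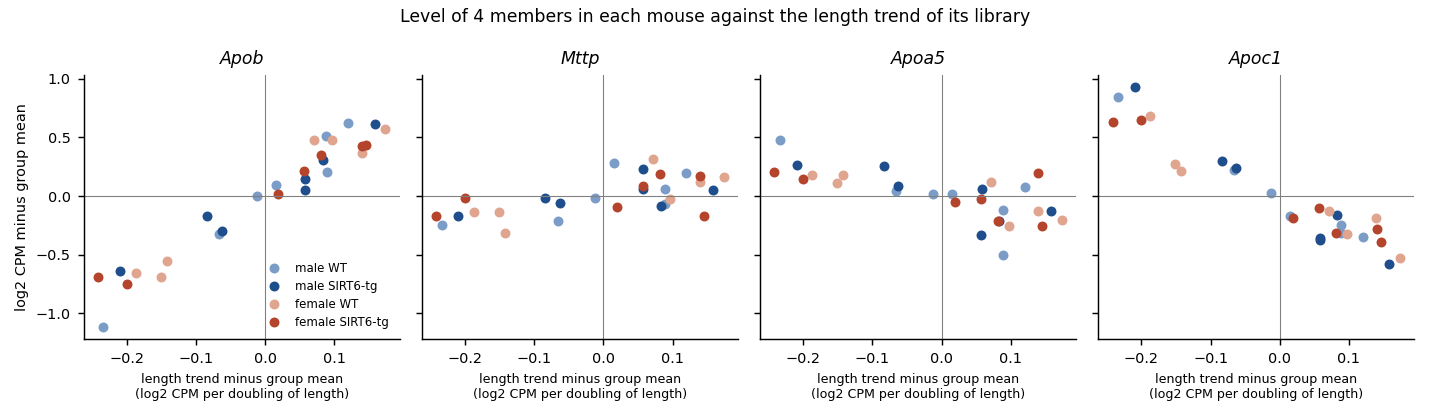
Log2 CPM of *Apob*, *Mttp*, *Apoa5* and *Apoc1* minus the group mean (y axis) against the length trend of the library minus the group mean (x axis), 1 point per mouse, coloured by group. *Apob* rises along the trend (r = 0.97) and *Apoc1* falls (r = −0.95) in mice of all 4 groups.

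The mean trend was −0.02 in male WT and −0.09 in male SIRT6-tg mice, against 0.04 and 0.07 in the female groups, so the genotype comparison was repeated with the trend of each library as a covariate, an alternative chosen after seeing the data. In males 7 of 10 genes were then higher in SIRT6-tg mice, beside 33.2% of all genes. The log2 difference was 0.59 for *Apoa5* (edgeR adjusted p = 4.02e-06), 0.51 for *Apoa2* (edgeR adjusted p = 2.68e-05), 0.45 for *Mttp* (edgeR adjusted p = 3.1e-05) and 0.44 for *Apoc1* (edgeR adjusted p = 7.88e-05). *Apob* passed with 0.37 (edgeR adjusted p = 0.000575), *Apoc3* with 0.33 (edgeR adjusted p = 0.0153) and *Apoe* with 0.21 (edgeR adjusted p = 0.0344). In females 0 of 10 passed, beside 0.0602% of all genes. The difference between the sexes then passed for 4 of 10, beside 11.8% of all genes, namely *Apoa5* with 0.64, *Apoa2* with 0.41, *Apoc1* with 0.38 and *Apob* with 0.38. With male WT replicate 6 and male SIRT6-tg replicate 7 both left out and no covariate, the genes called in males were 4 of 10, beside 17.2% of all genes. The trend is computed from the same libraries, and what sets it was not tested.

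Among 11107 other genes with a mean log2 CPM of at least 1, the gene whose within-group deviations were most like those of *Apob* over the 28 mice was *Usp9x* (r = 0.99), a deubiquitinase. For *Apoc1* it was *Ndufa4* (r = 0.98) and for *Apoa2* *Atp5j2* (r = 0.98), both of the mitochondrial respiratory chain or ATP synthase, and for *Apoc3* the apolipoprotein gene *Apoc4* (r = 0.98). For *Apoe* it was *D8Ertd738e* (r = 0.94), for *Apoa1* *Polr1d* (r = 0.94), an RNA polymerase subunit, and for *Apoa5* *Psmd9* (r = 0.85), a proteasome assembly factor. For *Apoa4* it was *Ahsa1* (r = 0.83), a cochaperone of HSP90, for *Mttp* *Pank1* (r = 0.83), a pantothenate kinase of coenzyme A synthesis, and for *Apoc2* *Ppme1* (r = 0.83). These correlations describe likeness over mice that share the length trend.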

How the data were processed

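Gene counts from 28 mouse livers were used. The authors made these counts from single-end reads, aligned to mm10 with STAR 2.5.0a and counted with HTSeq on Gencode genes, and deposited them without normalization. The strand setting is not given in the sources used here. Groups and replicate numbers came from the sample labels. Coordinates came from Gencode on GRCm38, and 49326 of 49585 features had a symbol. Genes with a mean of at least 0.5 counts after DESeq2 size factors were kept (21583), scaled by TMM and entered into edgeR 4.0.16 (R 4.3.3, quasi-likelihood test), 4 groups in 1 fit, no covariates, Benjamini-Hochberg adjustment, and a threshold of 0.05. log2 CPM used a prior count of 2. The 10 genes and all lists were chosen with earlier results of these data known. The genes named were the 10, *Sirt6*, overlapping or neighbouring genes, the 2 lowest adjusted p-values of each list in each direction in males, list genes passing in females or for the difference between the sexes (4 per list at most), and the gene most like each of the 10, except 1 gene that is not reported here. *Gm44805*, *Trmt10a* and *Apoc4* entered as neighbours, and *Cd3e*, *Adgre1*, *Sis*, *Alb* and *Ttr* as defining markers. Alternatives were RLE, upper-quartile, library-size and hepatocyte-protein scaling, TMM factors without the 10 and the 50 most abundant genes, filterByExpr, no filter, DESeq2 1.42.0, each sex alone, the replicate number as a block, and each library left out. The length covariate and the joint omission of a pair of male libraries were added after seeing the data, as were the scalings of the listed genes. The fit was tested on simulated data. Permutation tests used scipy 1.17.1. No libraries of a group agreed within sampling noise (chi-square per gene at least 13.3).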

Additional observations from a re-analysis of the deposited data

Results flagged for a closer look

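A single mouse stood apart from the other 6 of its group in 4 of 40 gene and group combinations, by Dixon's test at the 95% level, and chance flags about 1 in 20. In male WT replicate 6, *Apoa4* was at 93.9 CPM and *Apoc1* at 4356 CPM, the highest of their group. In male SIRT6-tg replicate 7, *Apoc3* was highest at 5671 CPM and *Apoc2* lowest at 0.265 CPM, which is 5 counts. These libraries had the lowest length trends among males, −0.26 and −0.30. Without the first, the male log2 difference was 0.83 for *Apoc3* (edgeR adjusted p = 0.0347), which then passed, and without the second the count of genes called in males fell from 4 (beside 20.7% of all genes) to 2 (beside 17.2%). Whether the length trend accounts for their position was not tested.

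The genotype effect of *Apoa5* differed between the sexes, being larger in males by 0.76 on the log2 scale (edgeR interaction test, adjusted p = 0.00728) under TMM. It did not pass under library size alone (0.46, edgeR adjusted p = 0.0618) or under the hepatocyte scaling (0.36, edgeR adjusted p = 0.114). Male SIRT6-tg mice were higher than the male WT median in 7 of 7 cases, and female SIRT6-tg mice were above the female WT median in 0 of 7.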

How the results depend on the processing

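Of 460 single-gene differences recomputed under the settings other than leaving out 1 library, 406 kept direction and side of the threshold, 17 lost and 11 gained significance, and 26 changed sign. The main fit had called only 4 genes in males, 0 in females, 1 for the difference between the sexes and 2 between WT sexes. Most of the 460 therefore had no call to lose, and the 406 do not measure how stable the calls were. Of the 17 losses, 5 came under library size alone and 6 under hepatocyte-protein scaling. *Apoa5* in males kept its call in all 40 alternatives (log2 0.32 to 0.76, adjusted p up to 0.0201). The count in males was 1 under library size alone, 1 under hepatocyte-protein scaling and 7 with the length covariate, and 2 to 5 without 1 library, 2 being without male SIRT6-tg replicate 7. For the difference between the sexes it was 0, 0 and 4 under those 3 settings, and for male against female WT 4 with the length covariate and 1 without both male libraries of steepest trend, with 1 to 2 without 1 library. Under hepatocyte-protein scaling the latter count of 3 held *Apoa1*, *Apoa4* and *Apoe*, all higher in males. The female count was 0 under every alternative. Over all genes, 7170 passed in males with the length covariate against 4467. In females 42 passed with DESeq2, 13 with the length covariate and 2 with each sex alone, against 6, and 3 to 16 without 1 library. The difference between the sexes had 1863 under library size, 2001 under hepatocyte-protein scaling and 2552 with the length covariate, against 1089, and WT sexes 4212, 5003 and 4454 under the same settings, against 2669. *Apoc1* in males also lost its call under RLE, upper-quartile scaling, TMM without abundant genes, no filter and each sex alone (adjusted p 0.0638 to 0.0995).

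Signs changed for these log2 differences. In males *Apob* was −0.00701 under upper-quartile scaling, −0.19 under library size, −0.24 under hepatocyte-protein scaling and −0.0136 with each sex alone, *Apoa4* −0.10 and −0.15 under library size and hepatocyte-protein scaling, and *Apoa1* −0.00886 and *Apoe* −0.0414 under the latter. *Apoc2* in males was 0.11 with the length covariate and 0.0597 without both steep male libraries. In females *Apoc1* was 0.0226 under hepatocyte-protein scaling, and with the length covariate *Apoc1* was 0.0565, *Apob* −0.00942 and *Apoc2* −0.00539. For the difference between the sexes *Mttp* was −0.0587 under library size and −0.15 under hepatocyte-protein scaling, *Apob* 0.38 and *Apoc2* 0.11 with the length covariate, and *Apoa4* 0.0651 without both steep libraries. Between WT sexes *Apoa2* was 0.043 and 0.13 under library size and hepatocyte-protein scaling, and *Apoc3* −0.21 with the length covariate and −0.18 without both steep libraries. Without 1 library, ranges were, in males, −0.0608 to 0.18 for *Apob* and −0.16 to 0.11 for *Apoc2*. In females they were −0.11 to 0.12 for *Apoa2*, −0.019 to 0.18 for *Apob*, −0.16 to 0.10 for *Apoc1*, −0.18 to 0.16 for *Apoc2* and −0.0746 to 0.24 for *Apoc3*. For the difference between the sexes they were −0.21 to 0.15 for *Apoa4*, −0.14 to 0.10 for *Apob* and −0.22 to 0.16 for *Apoc2*, and between WT sexes −0.19 to 0.20 for *Apoc3*. The cause of these changes was not tested.

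With the replicate number as a block, 4 genes were called in males (beside 19.5% of all genes), 0 in females (0.0278%), 1 for the difference (4.58%) and 2 between WT sexes (11.5%), and 3 uncalled values changed sign: *Apoa2* in females −0.00884, *Apob* for the difference 0.0499 and *Apoc3* between WT sexes −0.0221. The numbers do not pair the samples, since deviations of same-numbered libraries correlated between −0.35 and 0.33, and the block changed no call. *Apoc2* had the lowest depth, 5 to 65 counts per library.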

Other observations

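Markers of further cell types and acute phase genes were also read. Of 5 endothelial markers *Pecam1* alone passed in males and fell by 0.37 (edgeR adjusted p = 0.0496), and none of 5 cholangiocyte markers passed. Under library size and hepatocyte-protein scaling 3 and 2 endothelial and 2 and 3 cholangiocyte markers were lower. Of 3 adipocyte markers tested *Plin1*, which coats fat droplets, fell by 4.26 in male SIRT6-tg mice (edgeR adjusted p = 0.0153), and the summed list was 21.8 CPM in male WT replicate 3 and at most 3.50 CPM in all other mice. Of 9 acute phase genes, which respond to inflammation, 2 were higher and 4 lower in male SIRT6-tg mice under TMM, and 0 and 5 under either of those scalings. *Fgb* and *Fgg*, which encode fibrinogen chains, rose by 0.40 and 0.41 under TMM, and their effects in males exceeded those in females by 0.66 (edgeR adjusted p = 0.0106) and 0.70 (edgeR adjusted p = 0.0134), but neither gene passed in either comparison under library size or hepatocyte-protein scaling. *Lcn2*, lipocalin 2, fell by 3.75 (edgeR adjusted p = 5.83e-05), and *Saa2*, serum amyloid A2, an apolipoprotein of acute phase HDL, fell by 2.77 (edgeR adjusted p = 8.96e-05).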
